A study of Mus musculus with 12 samples.

Results

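The carboxylesterases described here are 10 genes of the mouse Ces1 and Ces2 classes, Ces1d, Ces1e, Ces1f, Ces1g, Ces2a, Ces2b, Ces2c, Ces2e, Ces2f and Ces2g. They were matched by gene name in a table of 54532 genes. They were picked partly because Ces2f changes strongly in these libraries, so every value of Ces2f is a description with no test, and counts of called members cover the other 9. Whole-colon RNA was sequenced in 12 libraries that form 4 groups of 3. In Tmem173fl/fl mice the STING gene Tmem173 is floxed but Cre is absent. Tmem173iΔmye mice have the same floxed gene with a tamoxifen-inducible Cre in Lyz2, a gene of myeloid cells, so the gene can be lost only in part of the colon's cells. Mice of 6 to 8 weeks had 5 tamoxifen injections in every group, and the 2 colitic groups were then given dextran sulfate sodium (DSS), a polymer toxic to the gut lining, over 7 days. The colitic Tmem173iΔmye libraries carry the replicate numbers 1, 2 and 5. The labels number the replicates without naming animals, so p-values measure the spread between these libraries.

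Carboxylesterases are serine hydrolases of the endoplasmic reticulum that cleave ester and amide bonds in drugs, toxins and lipids. Enzymes of the Ces1 class are best known in liver and fat, where Ces1d takes part in the breakdown of stored triacylglycerol and Ces1g bears on lipoprotein output. Enzymes of the Ces2 class are abundant in the intestinal epithelium, where they meet esters in food and oral prodrugs, and Ces2c can hydrolyse acylglycerols. Tandem duplication has given the mouse more members of each class than the human genome has.

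All members lie on chromosome 8 (GRCm38). The 4 Ces1 members are on the minus strand, Ces1d (ENSMUSG00000056973) at chr8:93166068-93197838, Ces1e (ENSMUSG00000061959) at chr8:93201218-93229619, Ces1f (ENSMUSG00000031725) at chr8:93256236-93279747 and Ces1g (ENSMUSG00000057074) at chr8:93302369-93337308. The 6 Ces2 members are on the plus strand, 11396694 bases further on, with Ces2a (ENSMUSG00000055730) at chr8:104734003-104741634, Ces2b (ENSMUSG00000050097) at chr8:104831572-104840093, Ces2c (ENSMUSG00000061825) at chr8:104847068-104854483 and Ces2e (ENSMUSG00000031886) at chr8:104926260-104934672. Ces2f (ENSMUSG00000062826) at chr8:104947356-104960047 and Ces2g (ENSMUSG00000031877) at chr8:104961718-104969537 are neighbours on the same strand with 1670 bases between them. Of the longest coding transcripts, those of Ces1 members were 72.6% to 77.6% identical to each other, those of Ces2 members 72.2% to 91.6%, and Ces1 with Ces2 members 58.4% to 61.9%.

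Because reads of near-identical stretches can be lost or assigned to a copy, the 50-base words of each member were looked up in the exons of the other family genes. For 9 members 0.301% to 4.43% of words were shared. For Ces2c the share was 34.3%, and 734 of its 2248 words occur in the pseudogene Ces2d-ps. The Ces2c level is therefore uncertain, by an amount that the share of words does not measure. Ces2f and Ces2g shared 71 words. The longest identical stretch of that pair is shown because they are neighbours with the most shared words of Ces2f. It lies in coding exon 2, at chr8:104948154-104948236 in Ces2f and chr8:104962580-104962662 in Ces2g, and its 83 bases are in capitals between 20 spliced bases on each side.
Ces2f: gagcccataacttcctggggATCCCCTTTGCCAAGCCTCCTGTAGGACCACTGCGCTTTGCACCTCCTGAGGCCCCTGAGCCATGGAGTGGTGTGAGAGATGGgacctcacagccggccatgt
Ces2g: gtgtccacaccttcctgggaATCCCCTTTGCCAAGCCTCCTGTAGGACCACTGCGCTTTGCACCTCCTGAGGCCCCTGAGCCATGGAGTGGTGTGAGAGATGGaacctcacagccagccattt
The lower-case ends already differ between the genes, so a read that reaches past the stretch can be told apart by those bases.

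The windows from 250 bases before to 50 bases after the RefSeq start (GRCm38.p6) of the same pair are printed because the 2 genes sit side by side and both had lower values in colitic than in untreated Tmem173fl/fl libraries. They cover chr8:104947106-104947405 for Ces2f and chr8:104961468-104961767 for Ces2g, plus strand. Windows were matched for 7 of 10 members, and those of Ces1d, Ces1f and Ces2b were not matched. Motif matches on either strand are in capitals.
Ces2f: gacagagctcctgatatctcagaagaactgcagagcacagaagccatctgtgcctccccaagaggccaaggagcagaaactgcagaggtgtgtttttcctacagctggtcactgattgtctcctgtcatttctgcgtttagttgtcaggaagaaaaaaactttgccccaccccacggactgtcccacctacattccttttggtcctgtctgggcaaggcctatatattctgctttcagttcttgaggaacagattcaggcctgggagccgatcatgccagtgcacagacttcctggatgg
Ces2g: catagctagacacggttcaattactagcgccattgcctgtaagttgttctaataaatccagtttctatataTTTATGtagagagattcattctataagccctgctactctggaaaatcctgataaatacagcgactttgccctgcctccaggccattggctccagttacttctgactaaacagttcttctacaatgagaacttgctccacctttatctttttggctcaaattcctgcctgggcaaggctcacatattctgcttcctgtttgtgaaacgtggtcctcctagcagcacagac
The motifs searched were the TATA box TATAAA, the nuclear receptor half-site AGGTCA, the HNF4A core CAAAGTCCA, the CDX site TTTATG and the AP-1 site TGANTCA. The Ces2f window held no match to these letters and the Ces2g window held 1 CDX match. Of 32851 windows in the table, 11.9% held the CDX letters, 13.6% the TATA box, 16.3% the half-site, 0.475% the HNF4A core and 7.81% the AP-1 letters. A match describes letters in a window and does not show a bound site.

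Libraries held 13823237 to 18718915 counts, and all 10 members passed the filter on low values (FPKM at or above 0.1 in 3 or more libraries) in 12 of 12 libraries. Levels are given as CPM, counts per 1000000 after TMM scaling, or as FPKM, which also divides by gene length and serves to compare genes. Tmem173 itself did not differ between the colitic genotypes beyond its spread, with a log2 difference of -0.28 ± 0.26 (SE, edgeR adjusted p = 0.602). Replicate 5 of the colitic Tmem173iΔmye group stood apart from the other 11 libraries. It lay at -113.9 on the second principal component, where the others ran from -26.5 to 31.6. Its summed CPM of 5 Hox genes of the distal gut was 476.1, whereas replicates 1 and 2 of its group were at 83.3 and 90.3 and the colitic Tmem173fl/fl libraries at 23.3 to 39.6. The untreated libraries lay closest to replicate 5 on this sum, at 220.2 to 379.8 CPM in Tmem173fl/fl and 179.6 to 407.8 CPM in Tmem173iΔmye mice. High Xist counts were found in replicate 3 of both untreated groups and in this replicate 5, and in no colitic Tmem173fl/fl library. In these libraries the other 4 of 5 sex-linked markers, all Y-linked, were at 0 counts, and in no other library was any at 0. Sex thus differed between libraries and was uneven between the colitic genotypes, and its part in the members' values was not tested. Macrophage markers, 8 in all, summed to 811.9 to 1099 CPM in colitic Tmem173fl/fl and 261.9 to 635.7 CPM in colitic Tmem173iΔmye libraries, smooth muscle markers to 2332 to 3925 CPM and squamous markers to 2.49 to 12.1 CPM over all libraries, and pancreas markers varied widely between libraries, up to 2399 CPM in the untreated groups, from 417 to 7025 CPM in colitic Tmem173fl/fl and from 0.607 to 7948 CPM in colitic Tmem173iΔmye libraries. For the members' fits in TMM-scaled counts, values without replicate 5 are given where leaving it out changed a call or moved a named value by over 1.5 times. Fits scaled to epithelium markers and fits of other genes hold all libraries of their groups. In RNA of whole tissue, fewer cells of a type and less RNA per cell cannot be told apart.

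The most abundant members were of the Ces2 class. In untreated Tmem173fl/fl colon Ces2e was at 62.1 ± 5.70 FPKM (SD, n = 3), Ces2c at 43.6 ± 5.14 and Ces2a at 22.9 ± 5.05, and the ranges of these 3 genes did not overlap. Ces1d followed, and its range of 7.55 to 18.6 FPKM reached into that of Ces2a, 18.3 to 28.3. Ces2g at 8.20 ± 2.16, Ces1f at 5.97 ± 3.19, Ces1g at 4.49 ± 3.26 and Ces1e at 3.66 ± 0.990 FPKM followed, and each range overlapped that of its neighbour in this order, although every Ces2g library lay above every Ces1e library. Ces2f at 1.45 ± 0.470 and Ces2b at 0.709 ± 0.199 FPKM had the lowest means. The level of Ces2f depends on the length used. The deposited length of 4925 bases is the union of its exons and is set by a transcript annotated as subject to nonsense-mediated decay, whereas its longest coding transcript has 1823 bases.

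The 10 members summed to 140.3 to 235.4 FPKM in a library. Ces2e had the highest FPKM of the members in every library except replicate 3 of the untreated Tmem173iΔmye group, where Ces2e was at 40.4 FPKM and Ces2c above it. Over the 12 libraries Ces2e ran from 110.8 to 230.8 CPM, Ces2c from 67.5 to 140.2 CPM and Ces1d from 14.9 to 57.8 CPM, and Ces2a started at 39.9 CPM. The Ces1 share of the summed FPKM was 9.94%, 21.5% and 17.7% in the untreated Tmem173fl/fl libraries and 22.5%, 19.2% and 23.1% in the untreated Tmem173iΔmye libraries. It was 23.4%, 28.9% and 24.6% in the colitic Tmem173fl/fl libraries. In the colitic Tmem173iΔmye libraries it was 13.3% and 15.4% in replicates 1 and 2 and 5.04% in replicate 5, below every colitic Tmem173fl/fl library.

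**Figure D1:**
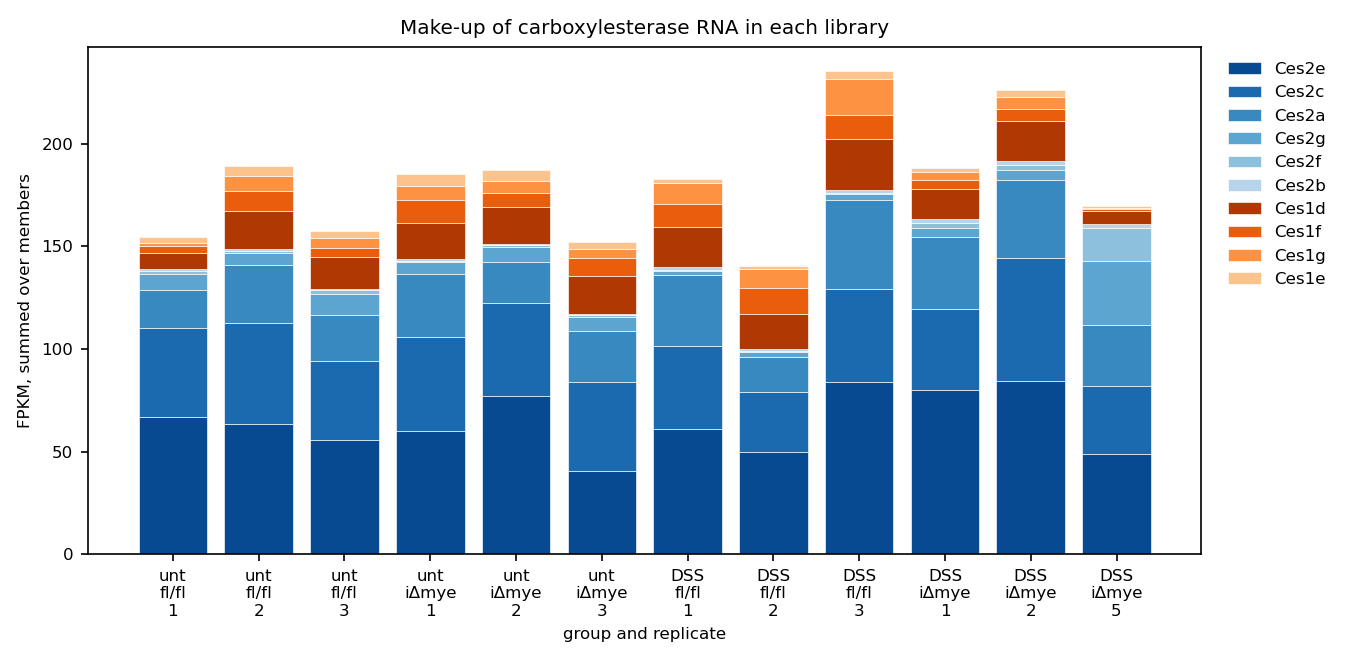
Stacked bars show the FPKM of each member in each of the 12 libraries, with Ces2 members in blue and Ces1 members in orange; the axis starts at 0. Ces2e, Ces2c and Ces2a form most of every bar, and Ces2f with Ces2g is visibly thick only in replicate 5 of the colitic Tmem173iΔmye group.

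The first comparison asks what DSS changes in Tmem173fl/fl colon. Of the 9 members tested 3 were called, at an edgeR adjusted p under 0.05 and an absolute log2 change of at least 1, beside 22.5% of all 24102 genes. Ces1f and Ces2b rose, and 14.9% of all genes were called higher. Ces2g fell, and 7.61% of all genes were called lower. The median log2 change was 0.47 over the 9 members and 0.03 over all genes, and 4 of the 9 had groups that did not overlap, beside 49.3% of all genes. The same 4 members had an unadjusted p under 0.05, beside 44.5% of all genes.

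Ces2g, a Ces2-class hydrolase, was at 29.5, 22.5 and 38.1 CPM in the untreated and at 8.02, 8.66 and 11.2 CPM in the colitic Tmem173fl/fl libraries. Every colitic library was below every untreated one. The log2 change was -1.63 ± 0.23 (SE, edgeR adjusted p = 0.0004714). The summed CPM of 10 general epithelium markers, among them Epcam and Cdh1, ran from 11650 to 14390 in the untreated and from 4323 to 7506 in the colitic libraries, with 5 of the 10 called lower and 0 higher. Scaled to these markers, the Ces2g change was -0.71 (edgeR adjusted p = 0.1115) and no longer called. Other markers moved with DSS in these mice too. Of 9 absorptive colonocyte markers 5 were called lower and 1 higher, and of the 5 Hox genes 3 lower and 0 higher. Of the 8 macrophage markers 7 were called higher and 0 lower. They summed to 193.5 to 238.1 CPM in the untreated and 811.9 to 1099 CPM in the colitic libraries. The part of all these markers in the fall of Ces2g was not tested further.

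Ces2f, the next gene upstream, was at 7.73, 4.81 and 9.46 CPM without DSS and at 1.14, 0.852 and 0.885 CPM with it in Tmem173fl/fl mice. The colitic values rest on 13 to 21 counts a library. The groups did not overlap, and the log2 change was -2.86 ± 0.34 (SE), the widest among the members in this comparison, for which they were partly picked. Scaled to the epithelium markers it was -1.94.

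Of the 4 Ces1 members 1 was called, Ces1f, in the direction opposite to Ces2g. Ces1f was at 12.9, 32.5 and 14.9 CPM in the untreated and at 35.8, 41.7 and 38.6 CPM in the colitic Tmem173fl/fl libraries. All colitic values were higher, although replicate 2 of the untreated group came within reach. Its log2 change of 1.02 ± 0.30 (SE, edgeR adjusted p = 0.02319) lay at the limit of 1. It was no longer called in 10 of 18 partly overlapping alternative analyses. Ces1g, the liver esterase tied to lipoprotein output, was at 2.58, 18.5 and 11.9 CPM without and 24.7, 21.4 and 40.7 CPM with DSS. The groups did not overlap, yet replicate 1 of the untreated group was far below its companions, and the log2 change of 1.46 ± 0.52 was not called (edgeR adjusted p = 0.05352). Ces1d, the triacylglycerol hydrolase, had a log2 change of 0.58 ± 0.28 (edgeR adjusted p = 0.139), and Ces1e, which anchors beta-glucuronidase in the endoplasmic reticulum, one of -0.55 ± 0.36 (edgeR adjusted p = 0.2694). Without replicate 2 of either group Ces1g was called higher, and without colitic replicate 3 Ces1e was called lower, at -1.05 on the log2 scale.

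Ces1 genes are also expressed in fat, and the untreated library with the lowest Ces1 share also had the fewest adipocyte marker counts. In replicate 1 of the untreated Tmem173fl/fl group the 7 adipocyte markers summed to 11.7 CPM with Adipoq and Plin1 at 0, and in the 2 others to 69.2 and 93.6 CPM. In the colitic Tmem173fl/fl libraries they summed to 85.7 to 129.1 CPM, with 2 of the 7 called higher and 1 lower. In the untreated Tmem173iΔmye libraries they summed to 71.2, 138.2 and 181.1 CPM, at Ces1 shares of 22.5%, 19.2% and 23.1%. In the colitic Tmem173iΔmye libraries they summed to 137.3, 116.5 and 52.1 CPM, at shares of 13.3%, 15.4% and 5.04%. Sums and shares thus did not always rank alike. Liver markers, 7 in all, summed to 11.5 to 30.7 CPM without and 4.66 to 8.58 CPM with DSS in Tmem173fl/fl mice. Of these 1 was called higher, Fgb, a fibrinogen chain gene, and 2 were called lower. Fgb had 0 to 4 counts a library without and 32 to 67 counts with DSS. Its call may rest on the filter on low values, so its values are a description with no test. Without that replicate 1 the log2 change of Ces1f was 0.78 (edgeR adjusted p = 0.06973), and the part of fat in the Ces1 values was not tested.

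Ces2b, the member with the lowest FPKM averaged over the 12 libraries, was at 3.26, 2.30 and 1.88 CPM without and at 6.01, 3.27 and 5.18 CPM with DSS in Tmem173fl/fl mice. The highest untreated and the lowest colitic library nearly touched. Its log2 change was 1.03 ± 0.33 (SE, edgeR adjusted p = 0.03578), and 8 of 18 partly overlapping alternatives did not call it. The 3 abundant Ces2 members did not pass the test. Ces2e had a log2 change of 0.08 ± 0.19, Ces2c of -0.16 ± 0.17 and Ces2a of 0.47 ± 0.29. Scaled to those markers, which moved the median log2 change of all genes from 0.03 to 0.99, Ces2c was at 0.75 and 5 members were called, all higher, beside 9665 of all 24102 genes.

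**Figure D2:**
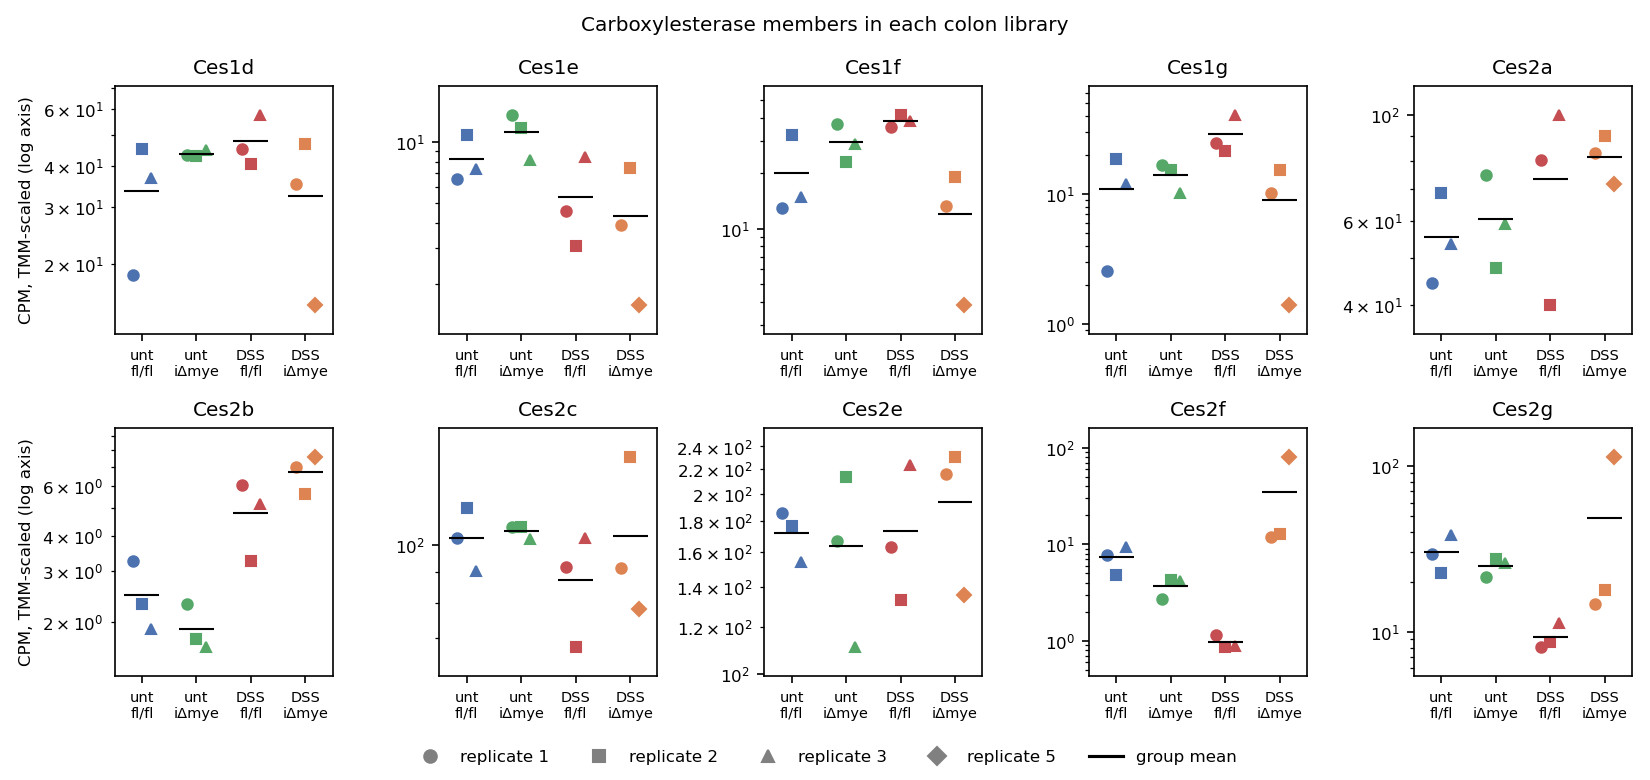
Each panel shows 1 member, with CPM on a log axis for the 3 libraries of each group (points, shape by replicate) and the group mean (line). Ces2f lies between 0.852 and 1.14 CPM in the colitic Tmem173fl/fl libraries and between 11.8 and 80.8 CPM in the colitic Tmem173iΔmye libraries, while Ces2e overlaps across all groups.

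The second comparison asks what DSS changes in Tmem173iΔmye colon. Of the 9 members 1 was called, and it was higher, beside 2.08% of all genes, of which 1.48% higher and 0.597% lower. An unadjusted p under 0.05 was found for 3 of the 9 and for 15.6% of all genes, and 3 of the 9 had groups that did not overlap, beside 21.5% of all genes. Ces2b was at 2.31, 1.74 and 1.62 CPM without and at 6.98, 5.60 and 7.59 CPM with DSS. Every colitic library was at least as high as 5.60 CPM and no untreated one exceeded 2.31. The log2 change was 1.82 ± 0.34 (SE, edgeR adjusted p = 0.02444). It was not called without any 1 of the 3 untreated libraries or without colitic replicate 1, with adjusted p from 0.05679 to 0.1476.

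Ces2f was at 2.73, 4.25 and 4.15 CPM in the untreated and at 11.8, 12.8 and 80.8 CPM in the colitic Tmem173iΔmye libraries. All 3 colitic values were higher, the opposite direction to that in Tmem173fl/fl mice. The log2 change was 3.24 ± 0.69 (SE), and 1.75 without replicate 5. Ces2g did not follow in the same way. It was at 21.3, 27.3 and 26.0 CPM without DSS and at 14.7, 17.9 and 113.5 CPM with it. Replicates 1 and 2 lay below every untreated library and replicate 5 far above them all. Its log2 change of 0.97 ± 0.64 (edgeR adjusted p = 0.5194) turned to -0.59 without replicate 5 (edgeR adjusted p = 0.1603).

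The 4 Ces1 members had negative fitted changes with DSS in this genotype, none of them called. Ces1f was at 37.3, 22.9 and 29.0 CPM without and at 13.3, 19.0 and 3.82 CPM with DSS, groups that did not overlap, with a log2 change of -1.31 ± 0.46 (edgeR adjusted p = 0.2018). Ces1e was at 13.6, 11.7 and 8.12 CPM without and at 3.92, 7.47 and 1.58 CPM with DSS, again without overlap, with -1.37 ± 0.49 (edgeR adjusted p = 0.2043). Ces1g had a log2 change of -0.65 ± 0.61 and Ces1d of -0.44 ± 0.34. Replicate 5 was the lowest of the 12 libraries for all 4 of these genes. Without it the log2 changes were smaller, at -0.86 for Ces1f, -0.94 for Ces1e, -0.11 for Ces1g and -0.06 for Ces1d, with edgeR adjusted p from 0.07972 to 0.8943. In it the adipocyte markers summed to 52.1 CPM, compared with 137.3 and 116.5 CPM in replicates 1 and 2.

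The third comparison is that of the genotypes without DSS. None of the 9 members and 0% of all genes were called by edgeR, while 720 genes had an unadjusted p under 0.05 (2.99%), 0 of them members. Groups did not overlap for 0 of the 9 and for 7.35% of all genes. DESeq2 and both limma fits also called 0 members. The log2 difference was 0.57 for Ces1f, -0.38 for Ces2b and -0.27 for Ces2g (edgeR adjusted p = 1 each). Ces2f was lower in every untreated Tmem173iΔmye library than in any untreated Tmem173fl/fl library, 2.73 to 4.25 and 4.81 to 9.46 CPM, a log2 difference of -0.97 ± 0.30 (SE).

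The fourth comparison sets colitic Tmem173iΔmye against colitic Tmem173fl/fl colon, and asks whether the loss of myeloid STING goes with another carboxylesterase pattern in colitis. Ces2f was higher in all 3 Tmem173iΔmye libraries. The lowest of them, at 11.8 CPM, exceeded the highest Tmem173fl/fl library at 1.14 CPM, and the log2 difference was 5.18 ± 0.83 (SE). Without replicate 5 it was 3.66. None of the 9 other members was called by edgeR, beside 2.81% of all genes, 0.822% higher and 1.99% lower. Of these 9, 3 had an unadjusted p under 0.05 (20.2% of all genes) and non-overlapping groups (26.8%), and DESeq2 called 2 of them, Ces1f and Ces2g, beside 1619 genes in all.

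Ces2g was higher in colitic Tmem173iΔmye colon in each library, at 14.7, 17.9 and 113.5 CPM beside 8.02, 8.66 and 11.2 CPM. The log2 difference was 2.38 ± 0.73 (SE, edgeR adjusted p = 0.1168) and 0.79 without replicate 5 (edgeR adjusted p = 0.1352). Ces1f went the other way, at 13.3, 19.0 and 3.82 CPM beside 35.8, 41.7 and 38.6 CPM. The log2 difference was -1.70 ± 0.47 (edgeR adjusted p = 0.09056). Without replicate 5 it was -1.27 and called (edgeR adjusted p = 0.03117). Ces1g was at 10.2, 15.2 and 1.40 CPM beside 24.7, 21.4 and 40.7 CPM, a log2 difference of -1.71 ± 0.67 (edgeR adjusted p = 0.2). The other 6 differed by -0.58 to 0.48 on the log2 scale, and by -0.23 to 0.39 without replicate 5.

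Markers moved along with the genotypes in colitis. Epithelium markers summed to 9160 to 11070 CPM in colitic Tmem173iΔmye libraries, above the 4323 to 7506 CPM of the Tmem173fl/fl libraries. Their median log2 difference was 0.78, and edgeR called 0 of the 10, while 7 had an unadjusted p under 0.05. Of 9 absorptive colonocyte markers 2 were called higher, and of the 5 Hox genes 2. Of 8 macrophage markers 2 were called lower, Mrc1 and Cd163. The 7 adipocyte markers differed in both directions, with overlapping sums (85.7 to 129.1 CPM in colitic Tmem173fl/fl and 52.1 to 137.3 CPM in colitic Tmem173iΔmye libraries). edgeR called 0 of them, and of the 4 at an unadjusted p under 0.05, Plin1, Lep and Retn had higher and Plin4 lower values in Tmem173iΔmye libraries. Of the liver markers, Fgb was called lower, with 0 to 4 counts in colitic Tmem173iΔmye libraries. This call too may rest on the filter and is a description only. With counts scaled to the epithelium markers, the difference of Ces2f was 4.42, that of Ces2g 1.63 (edgeR adjusted p = 0.05773), and Ces1d, Ces1f and Ces1g were called lower. That scaling moved the median of all genes to -0.72 and called 3487 of the 24102 genes. Replicate 5 had the fewest colonocyte marker counts of its group, 3789 CPM beside 7824 and 7154, and the highest Hox sum. The part of these markers in the members' values was not tested.

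**Figure D3:**
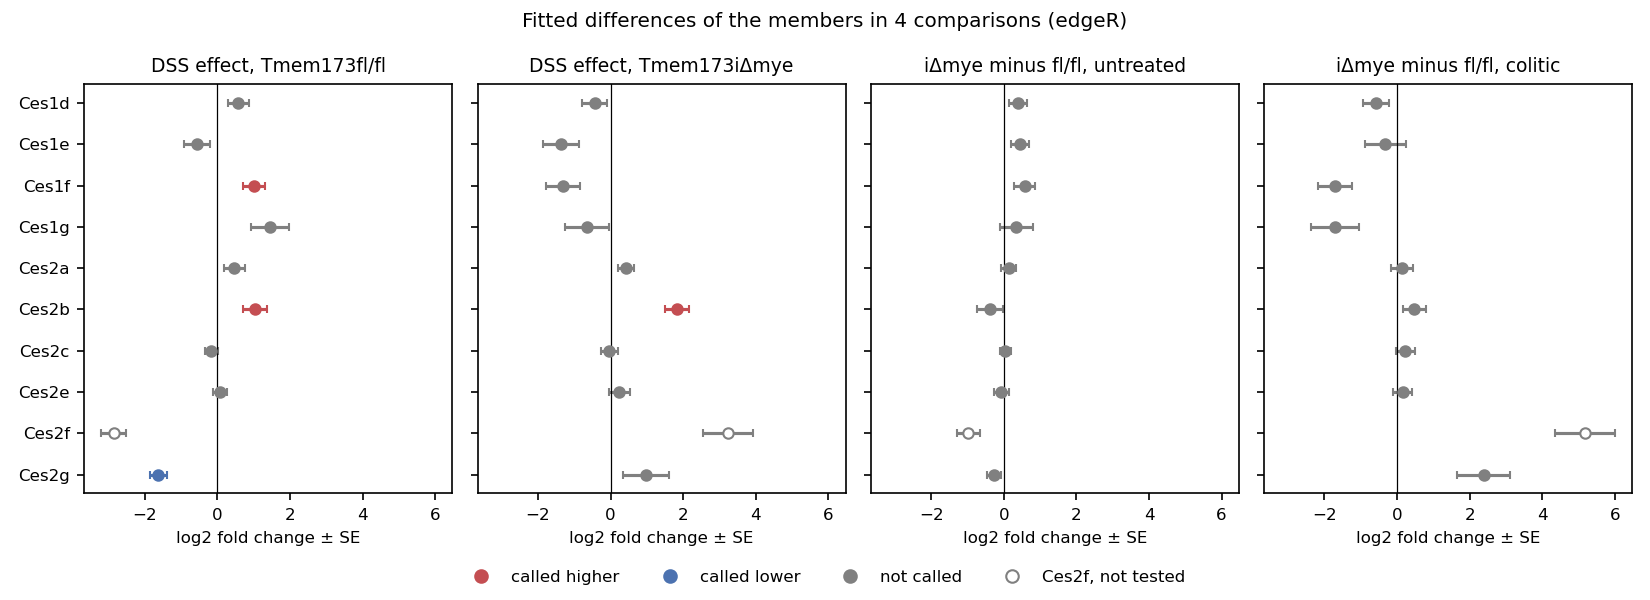
Points show the fitted log2 difference of each member with its SE in 4 comparisons of 3 against 3 libraries, coloured where called by edgeR; open points mark Ces2f, which was not tested. Ces2f lies at -2.86 for DSS in Tmem173fl/fl and at 3.24 in Tmem173iΔmye mice, and Ces2b is called higher in both.

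The difference between the genotypes in their DSS response was tested by the interaction over all 12 libraries. None of the 9 members was called by edgeR, beside 2.55% of all genes, 0.934% positive and 1.61% negative, while 3 had an unadjusted p under 0.05 (18.1% of all genes) and DESeq2 called 1, Ces1f, beside 1365 genes in all. The interaction was -2.25 ± 0.63 (SE) for Ces1f (edgeR adjusted p = 0.0764), 2.66 ± 0.81 for Ces2g (edgeR adjusted p = 0.09896), -2.04 for Ces1g (edgeR adjusted p = 0.2759) and 0.87 for Ces2b (edgeR adjusted p = 0.3311). Without replicate 5 the interaction of Ces2g was 1.07 (edgeR adjusted p = 0.1112) and that of Ces1f was -1.85 and called (edgeR adjusted p = 0.04701). Ces1f was also called without replicate 2 of the untreated Tmem173fl/fl group (-2.78) or of the colitic Tmem173iΔmye group (-2.75), and Ces2g without replicate 1 of the latter (3.09). For Ces2f the interaction was 6.17 ± 0.91, and 4.63 without replicate 5. Of the 9 members, Ces1f was the one whose colitic libraries all lay outside the untreated range on opposite sides in the 2 genotypes, beside 0.535% of all genes. The Ces2f libraries were placed in this way too, which is a description only.

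The ratio of Ces2g to Ces2f counts was lowest in colitic Tmem173iΔmye libraries and overlapped between untreated Tmem173iΔmye and colitic Tmem173fl/fl libraries. In untreated Tmem173fl/fl libraries there were 3.82, 4.68 and 4.03 counts of Ces2g for each of Ces2f, in untreated Tmem173iΔmye libraries 7.80, 6.41 and 6.26, and in colitic Tmem173fl/fl libraries 7.05, 10.2 and 12.7. In colitic Tmem173iΔmye libraries the ratio was 1.25, 1.39 and 1.40. Replicate 5 thus had the ratio of its group although its levels of both genes were the highest of all libraries. Across the 12 libraries, log2(CPM + 1) of the pair had a Pearson r of 0.846 and a Spearman rho of 0.622, and 0.654 and 0.509 over the 11 libraries without replicate 5. For Ces1d with Ces1g the values were 0.952 and 0.706, and 0.911 and 0.618 without it. These describe libraries that share groups and carry no test.

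**Figure D4:**
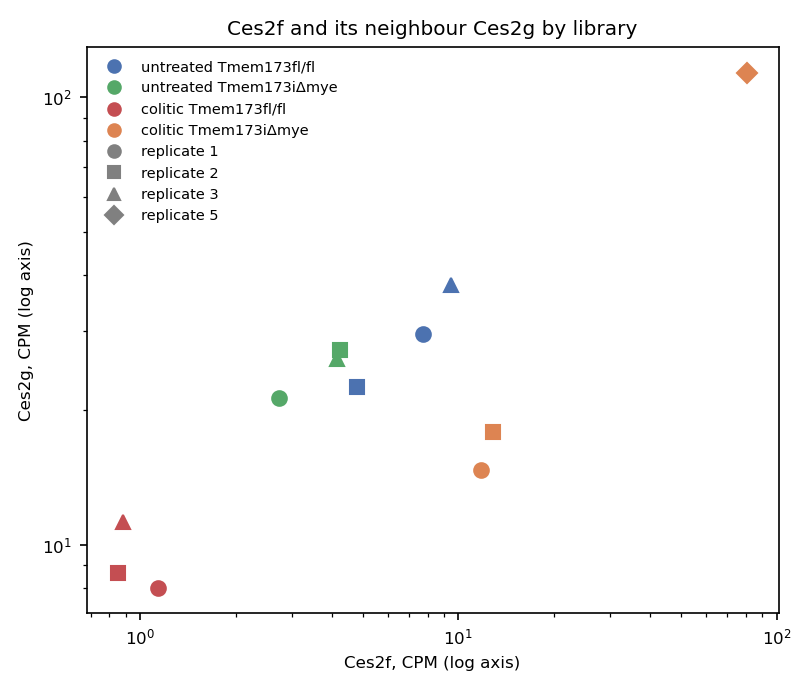
Each point is 1 library, with Ces2f CPM on the horizontal and Ces2g CPM on the vertical log axis, coloured by group and shaped by replicate. Colitic Tmem173fl/fl libraries sit at the lower left, and replicate 5 of the colitic Tmem173iΔmye group sits alone at the upper right, at 80.8 and 113.5 CPM.

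The genes whose log2(CPM + 1) was most like that of Ces2f over the 12 libraries, among 14548 genes outside the family with a mean FPKM of at least 1, were 4732471J01Rik (r = 0.945), Pglyrp1 (0.944), Eif2s2 (0.938), Gk (0.935) and Muc13 (0.933). Pglyrp1 is an antibacterial peptidoglycan-binding protein, Gk glycerol kinase and Muc13 an epithelial mucin. Without replicate 5 the values ran from 0.868 to 0.932. For Ces2e, the most abundant member, they were Mir3058 (0.867), Srxn1 (0.867), Rock2 (0.852), Prss30 (0.847) and Cast (0.831).

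Related genes were read from lists chosen by function. Of 10 other carboxylesterase genes 6 could be tested. With DSS in Tmem173fl/fl mice 3 of these were called higher and 0 lower, beside 14.9% and 7.61% of all genes. Ces1a, 1 of the 3, passed the filter on low values only through the 3 colitic Tmem173fl/fl libraries. Its calls were thus set by the filter, and its values are a description with no test. Ces1c, a secreted plasma esterase, was at 4 to 23 counts without and 26 to 70 counts with DSS, a log2 change of 1.70. Ces2d-ps had a log2 change of 1.66 (edgeR adjusted p = 0.03919), although colitic replicate 1 at 0.7585 CPM nearly touched the highest untreated library at 0.7574. Ces1a was at 0 to 2 counts without and 10 to 15 counts with DSS, at least 3.51-fold higher against a floor of 3 counts a library. In colitic Tmem173iΔmye libraries Ces1c had 3 to 8 counts and Ces1a at most 1. These 2 of the 6 tested genes were called lower than in colitic Tmem173fl/fl libraries, beside 1.99% of all genes. The log2 difference of Ces1c was -2.91 (edgeR adjusted p = 0.02695). Ces1a, whose call again rests on the filter, was at least 3.73-fold lower. edgeR called 0 of the 6 in either direction for the interaction, between untreated genotypes, or when colitic and untreated Tmem173iΔmye libraries were compared.

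Of 18 other ester and lipid hydrolases, 2 were called higher and 2 lower for DSS in Tmem173fl/fl mice, where the shares over all genes were again 14.9% and 7.61%. Mgll, the monoacylglycerol lipase, had a log2 change of 1.68 and Lipe, the hormone-sensitive lipase, of 1.36. Aadac, an arylacetamide deacetylase of the endoplasmic reticulum, fell by 3.35 (edgeR adjusted p = 9.163e-05) and Pon3, a lactonase, was called lower, from 75.7 to 88.2 CPM without DSS to 29.0 to 39.8 CPM with it. In Tmem173iΔmye mice Aadac alone of the 18 was called, at -2.41 (edgeR adjusted p = 0.01134), beside 0.597% of all genes called lower there. Of 12 genes of acylglycerol, lipoprotein and retinyl ester handling, Mttp (1.06), Dgat2 (1.28) and Cd36 (1.33) were called higher and Fabp2 (-1.60) lower for DSS in Tmem173fl/fl mice, and Lrat (-2.16), which forms retinyl esters, lower in Tmem173iΔmye mice, the 1 call of these 12 there. Of 11 regulators of drug metabolism genes, the bile acid receptor gene Nr1h4 (1.02) was called higher and Hnf4a (-1.32) and Hnf4g (-1.63) lower for DSS in Tmem173fl/fl mice. Between colitic genotypes edgeR called 0 of the 41 genes of these 3 lists, while 7 had an unadjusted p under 0.05, beside 20.2% of all genes.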

How the data were processed

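Total colonic RNA of 12 libraries, 3 in each of 4 groups taken from the sample titles, was sequenced. The authors deposited whole-number counts per gene and FPKM values. The submitters' processing notes name CASAVA 1.8, fastp, HISAT2 2.0.5, featureCounts 1.5.0-p3 and DESeq2 1.20.0 with GRCm38/mm10, and whether counting used strand is not given in the sources used here. Deposited columns of the authors' own comparisons and means were not used. Totals of 13823237 to 18718915 counts set the precision.

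The members and gene lists were chosen with earlier results of these data known. The named genes were all 10 members, of each list up to 4 called genes a comparison with the largest absolute log2 change, and the 5 genes most like Ces2f and like the most abundant member. edgeR 4.0.16 (R 4.3.3) quasi-likelihood tests with TMM scaling were fitted for each pair of groups, and for the interaction over all libraries, on the 24102 of 54532 genes whose FPKM was 0.1 or more in 3 or more libraries, with Benjamini-Hochberg adjustment over all of them. A gene was called at an adjusted p under 0.05 and an absolute log2 change of at least 1. CPM are counts per 1000000 of the TMM-scaled total. The fits were tested on simulated data. Alternatives were limma 3.58.1, DESeq2 1.42.0, other filters and scalings, a replicate block and leaving out each library. No 2 libraries held identical values. The gene models came from GENCODE M21 (GRCm38), and promoter windows from RefSeq (GRCm38.p6). Marker and gene lists covered epithelium, absorptive colonocytes, adipocytes, liver, pancreas, squamous epithelium, macrophages, smooth muscle, distal Hox and sex-linked genes.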

Additional observations from a re-analysis of the deposited data

Results flagged for a closer look

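Ces1f and Ces2f were flagged because every colitic library lay outside the untreated range of its genotype, on opposite sides in the 2 genotypes. Of all genes tested, 0.535% were placed in this way. Since Ces2f was picked partly for its change, its placement is a description only. For Ces1f the interaction was -2.25 on the log2 scale, which missed the threshold (edgeR adjusted p = 0.0764) and ran from -2.78 to -1.85 with single libraries left out. For Ces2f it was 6.17, and this difference was not tested because the gene was among those picked for its change.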

How the results depend on the processing

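With 3 libraries a group, calls near the limits moved with the setting, and the causes were not tested. For DSS in Tmem173fl/fl mice 3 members were called, 5 with counts scaled to general epithelium markers, 4 with no filter on low genes, 4 at an unadjusted p, 2 under DESeq2, 2 with DESeq2 size factors, 1 under limma on log2(FPKM + 0.1), 1 on log2(FPKM + 1), 1 in one fit of all 12 libraries, 1 without the libraries of at least 1000 Xist counts (an alternative chosen after the data were seen), and 1 to 3 with single libraries left out, 1 without untreated replicate 3 (Ces2g) and 2 without colitic replicate 3 (Ces1e and Ces2g). Over all genes the calls went from 5422 to 9665, 5716, 6266, 5303, 5428, 5105, 2838, 5127 and 4867 in the same order. With single libraries left out they ran from 4761 to 5568. Ces2g was the member called in 17 of 18 of its alternatives. These alternatives are not all separate tests. Dropping the fold limit or using an unadjusted p reuses the main fit, where a called member stays called. Leaving out the libraries of at least 1000 Xist counts is here the same fit as leaving out untreated replicate 3. For DSS in Tmem173iΔmye mice the count of 1 became 2 with no filter on low genes, 0 under either limma fit, 3 at an unadjusted p, 0 without the Xist-high libraries, and 0 to 1 with single libraries left out. Calls over all genes there moved from 501 to 1013, 41 and 74 under the limma fits, 2193 and 625 in the same order. They ran from 51 to 1469 with single libraries left out. Between untreated genotypes the member count was 0 in every alternative. Calls over all genes there were 0 in the main fit and ran from 0 to 328 in the alternatives, the 328 at an unadjusted p. Between colitic genotypes the count of 0 became 3 with epithelium scaling, 2 with no filter, 2 under DESeq2, 3 at an unadjusted p, 2 in one fit of all libraries and 1 without the Xist-high libraries, and was 0 to 1 with single libraries left out, the 1 being Ces1f without replicate 5 of the Tmem173iΔmye group. Calls over all genes there moved from 678 to 3487, 1257, 1619, 2505, 1492 and 508 in the same order. They ran from 27 to 1593 with single libraries left out. The interaction count of 0 became 1 with epithelium scaling, 2 with no filter, 1 under DESeq2, 3 at an unadjusted p, and 0 to 1 with single libraries left out, Ces1f without untreated Tmem173fl/fl replicate 2 or colitic Tmem173iΔmye replicate 2 or 5, and Ces2g without colitic Tmem173iΔmye replicate 1. Interaction calls over all genes moved from 614 to 1729, 1228, 1365 and 2747 in the same order. They ran from 267 to 1728 with single libraries left out. Epithelium scaling moved the median log2 change of all genes to 0.99 for DSS in Tmem173fl/fl mice and -0.72 between colitic genotypes. It turned Ces1e to 0.30 and Ces2c to 0.75 for DSS in Tmem173fl/fl mice, Ces2c to 0.25 for DSS in Tmem173iΔmye mice, and Ces2a to -0.49, Ces2b to -0.20, Ces2c to -0.47 and Ces2e to -0.52 between colitic genotypes. Ces2c for DSS in Tmem173iΔmye mice was 0.021 with an FPKM of at least 1 and 0.14 without the Xist-high libraries, which also gave -0.55 for Ces2g there and 0.077 for Ces1e between colitic genotypes. With single libraries left out, Ces2e for DSS in Tmem173fl/fl mice ran from -0.17 to 0.22, Ces2c and Ces2g for DSS in Tmem173iΔmye mice from -0.30 to 0.16 and from -0.59 to 1.40, and Ces1e, Ces2a and Ces2c between colitic genotypes from -0.96 to 0.17, -0.14 to 0.44 and -0.035 to 0.39.

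The labels do not say whether replicate numbers pair the libraries. Same-numbered pairs of deviations had r over 0.1 in 4 of 15 (-0.19 to 0.24), and differently numbered pairs ran from -0.47 to 0.34. These values cannot decide whether libraries were paired. A replicate block, in which replicate 5 has no partner and so carries no weight, and which rests on 2 pairs (replicates 1 and 2) for DSS in Tmem173iΔmye mice and between colitic genotypes, gave 4 calls for DSS in Tmem173fl/fl mice, 1 between colitic genotypes and 2 for the interaction, and turned Ces2c (0.084) and Ces2g (-0.57) for DSS in Tmem173iΔmye mice and Ces1e (0.52) between colitic genotypes. Over all genes the block called 4939 for DSS in Tmem173fl/fl mice, 849 between colitic genotypes and 590 for the interaction.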

Other observations

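Ces2d-ps, a pseudogene that shares 734 of the 50-base words of Ces2c, held 184 counts in replicate 1 of the colitic Tmem173iΔmye group and 7 to 53 counts in the other 11 libraries.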
